A study of Homo sapiens with 14 samples.

Results

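The regions described here are the places in control DU145 cells where a peak of RING1A, RING1B or BMI1 was called. DU145 is an established human prostate cancer cell line, and the control cells carried a scramble construct and had been selected with puromycin. RING1A, RING1B and BMI1 were each mapped by chromatin immunoprecipitation followed by sequencing (ChIP-seq), with rabbit antibodies of 1 supplier. Overlapping peaks of the 3 control lists were merged, and each merged region was placed in 1 of 7 combinations according to which subunits had a peak in it. The 81941 peaks gave 64440 regions, against 227479 peaks in all 14 libraries of the series. The series also holds cells with a stable EED knockdown, which were not used here, and control libraries of EED, H3K27me3 and ubiquitylated histone H2A (uH2A, mapped with 1 rabbit and 1 mouse antibody), which were laid over the regions. Each antibody has 1 control library with no replicate, so no difference between combinations has a replicate check and no test between libraries was possible. Intervals, at the 95% level, cover counting error only and treat regions as independent, although regions lie close together. Positions are given in hg19, without gene names, since no annotation of hg19 was at hand.

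Polycomb repressive complex 1 (PRC1) is built around a RING1A or RING1B subunit, the catalytic ubiquitin ligases that attach ubiquitin to histone H2A. BMI1 is one of several alternative partners that pair with a RING1 protein and define the canonical forms of the complex. The complex PRC2, of which EED is a core subunit, places the H3K27me3 mark, and canonical PRC1 can be brought to that mark by its chromobox subunits. Both RING1 proteins take the same place in the complex and can stand in for each other there.

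The 3 lists differed in length. RING1A had 56011 peaks covering 9.07 Mb, BMI1 had 20775 peaks covering 3.66 Mb and RING1B had 5155 peaks covering 1.08 Mb. The median height, the signal of a peak as written by the authors' peak caller, was 59.0 for RING1A, 64.6 for RING1B and 68.9 for BMI1. The sources used here give no read totals, so the depth behind each list is unknown. In these 3 lists and in that of H3K27me3, each peak on chromosomes 22, X and Y has a height of 0 and no other peak does. These heights were read as not filled in, which left 53822 RING1A, 4522 RING1B and 19326 BMI1 peaks with a height and a summit. EED and uH2A lists have heights on all chromosomes. They come from libraries with a different culture description, while H3K27me3 shares its description with the PRC1 subunits, so antibody and library set cannot be told apart where marks are compared. High-signal windows, 100-kb windows and their neighbours in which at least 2 of the 4 other antibodies have a peak over 10 times their median height, held 251 regions (0.390%).

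RING1A alone was the most frequent combination and RING1A with RING1B, without BMI1, the rarest. RING1A alone made up 43598 regions, or 67.7% (Clopper-Pearson interval 67.3 to 68.0), and covered 5.86 Mb. RING1A with BMI1 followed with 8757 regions (13.6%), BMI1 alone with 7366 (11.4%), and all 3 subunits with 3110 (4.83%, 4.66 to 4.99). RING1B with BMI1 had 897 regions (1.39%), RING1B alone 494 (0.767%) and RING1A with RING1B 218 (0.338%). Regions with all 3 subunits covered 1.43 Mb, more than those of BMI1 alone at 0.837 Mb, with a median region length of 325 bp against 100 bp.

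**Figure D1:**
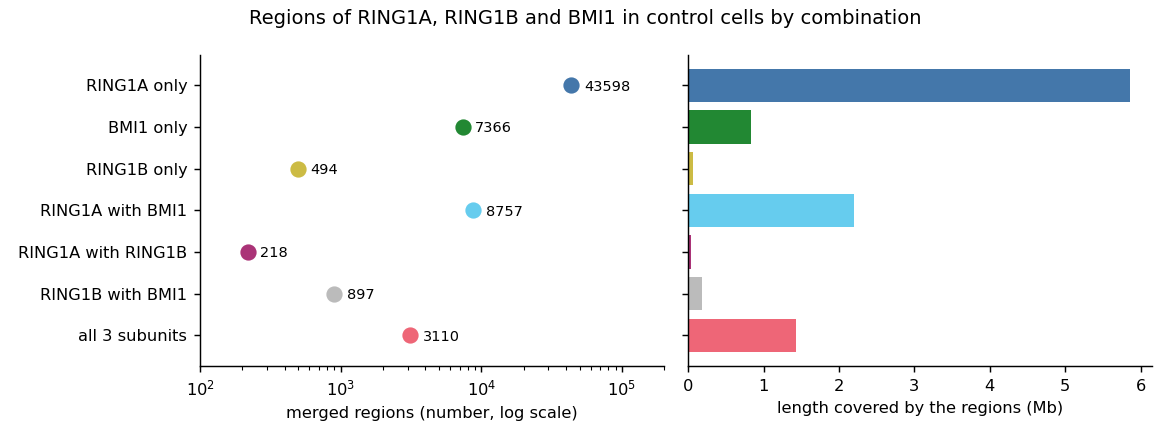
Number of merged regions (left, log scale) and the length they cover in Mb (right) for the 7 combinations of RING1A, RING1B and BMI1 in control cells. RING1A alone has the most regions and the greatest length, while the 3110 regions with all 3 subunits cover more than the 7366 of BMI1 alone.

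In the full lists RING1B was rarely found without a partner. Of the 4719 regions with RING1B, 65.9% had all 3 subunits (64.5 to 67.3), 19.0% had BMI1 and no RING1A, 4.62% had RING1A and no BMI1, and 10.5% had neither. Of the 20130 regions with BMI1, 43.5% also had RING1A alone, 15.4% had both RING1 proteins, 4.46% had RING1B alone and 36.6% had neither. Of the 55683 regions with RING1A, 78.3% had no other subunit and 5.59% had both. BMI1 was therefore present in 93.4% (92.6 to 94.3) of the 3328 regions with both RING1 proteins. RING1A was present in 77.6% (76.3 to 78.9) of the 4007 regions with RING1B and BMI1, and RING1B in 26.2% (25.4 to 27) of the 11867 regions with RING1A and BMI1.

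These shares depend on how many peaks enter. Lists cut to the same number, the 4522 tallest peaks of each subunit that have a height, gave 7594 regions, of which 1793 (23.6%, 22.7 to 24.6) had all 3 subunits. All 3 subunits was then the most frequent combination, ahead of RING1A alone (1645), RING1B alone (1314) and BMI1 alone (1094). BMI1 was present in 87.9% (86.4 to 89.3) of regions with both RING1 proteins, RING1B in 71.0% (69.2 to 72.8) of those with RING1A and BMI1, and RING1A in 70.0% (68.1 to 71.7) of those with RING1B and BMI1. RING1A with RING1B stayed the rarest combination, with 246 regions.

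Few placements hung on the overlap rule. Peak ends lie on a grid of 25 bp, and the smallest overlap was 25 bp, found in 318 of 12813 overlapping pairs of RING1A and BMI1 peaks, 48 of 3773 of RING1A and RING1B, and 38 of 4452 of RING1B and BMI1. Just outside the rule, 184, 23 and 9 pairs touched without overlap, and 185, 21 and 15 lay 25 bp apart. In 71.6% of RING1A and BMI1 pairs, 79.8% of RING1A and RING1B pairs and 84.4% of RING1B and BMI1 pairs, 1 peak lay wholly inside the other.

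Peaks at regions with all 3 subunits were longer and taller than peaks of the same library found alone. A RING1A peak had a median length of 125 bp alone, 175 bp with BMI1, 150 bp with RING1B and 262.5 bp (250 to 275) with both, a ratio of 2.1 between the last and the first. Its median height was 57.2 alone, 67.0 with BMI1, 64.1 with RING1B and 111 with both (109 to 114). Of the RING1A peaks at regions with all 3, 86.3% (85.0 to 87.5) were in the tallest 25% of the RING1A list, against 15.7% of those alone. BMI1 followed the same order, with a median length of 100 bp alone, 125 bp with RING1A, 175 bp with RING1B and 275 bp with both. The median BMI1 height was 63.9 alone, 68.7 with RING1A, 83.9 with RING1B (81.0 to 85.9) and 111 with both (109 to 113).

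RING1B peaks differed less. Their median height was 52.6 alone, 53.0 with RING1A, 63.2 with BMI1 (61.6 to 65.0) and 68.5 with both (67.2 to 69.9), and their median length 100, 100, 150 and 175 bp. The intervals of RING1B alone (51.2 to 54.0) and RING1B with RING1A (51.2 to 54.0) coincided, so the presence of RING1A without BMI1 went with no detectable difference in RING1B height at this number of peaks. The heights of the subunits ran together where they met. Over the 2773 regions with all 3 subunits and a height, Spearman's rho was 0.80 between RING1B and BMI1, 0.74 between RING1A and BMI1 and 0.64 between RING1A and RING1B. It was 0.66 over 772 regions of RING1B with BMI1, 0.46 over 8207 of RING1A with BMI1 and 0.15 over 198 of RING1A with RING1B. Regions are not independent replicates, and the heights share the local sequence and its mappability.

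**Figure D2:**
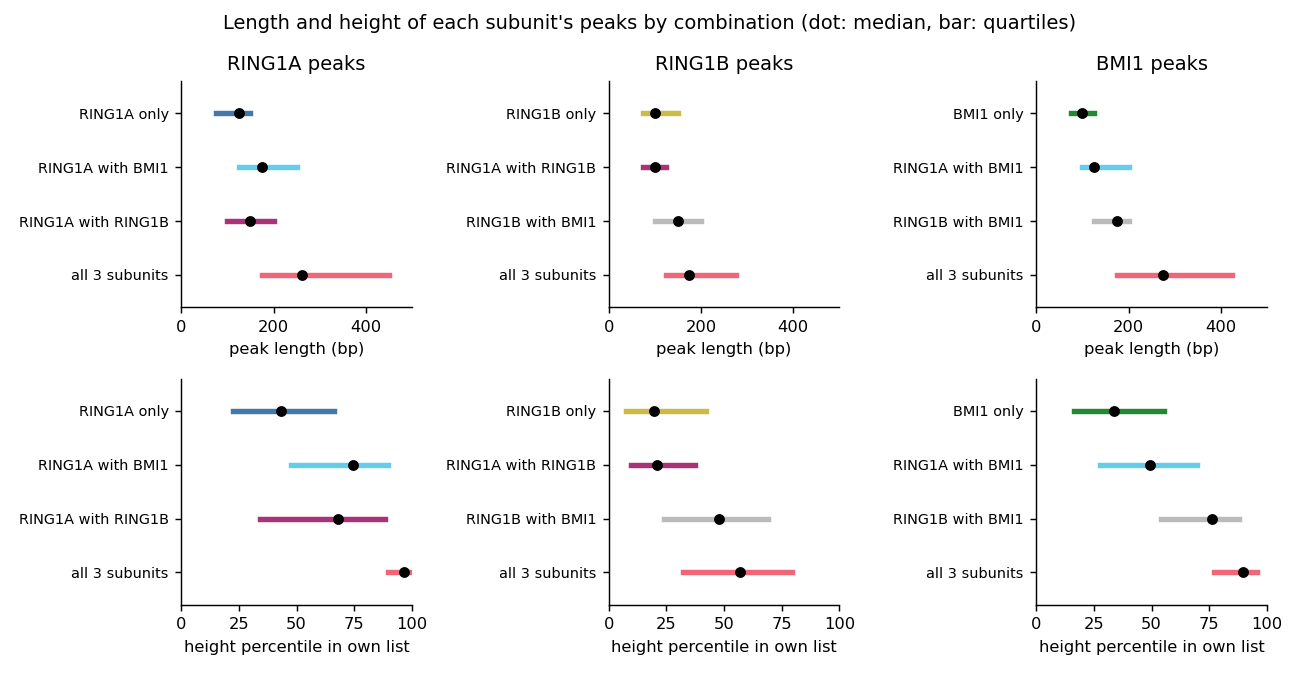
Length in bp (top) and height percentile within the subunit's own list (bottom) of RING1A, RING1B and BMI1 peaks by combination, with dots for medians and bars for quartiles. For RING1A and BMI1 the peaks at regions with all 3 subunits have the highest median percentile, 96.6 and 89.6, while for RING1B the difference between combinations is smaller.

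For RING1A and BMI1 the difference in height was also present among peaks of like length, except the shortest of RING1A. For RING1B it was small and exceeded counting error only among the shortest peaks. Among RING1A peaks of 225 to 300 bp the median height was 68.0 alone (3278 peaks), 77.0 with BMI1 (1592) and 124 with both (687, interval 118 to 128). Among those of 75 to 100 bp it was 53.6 alone and 54.0 with both (52.6 to 56.0). Among BMI1 peaks of 225 to 300 bp it was 80.0 alone, 82.0 with RING1A, 118 with RING1B (109 to 130) and 117 with both (114 to 121). RING1B peaks of 125 to 150 bp had 58.6 alone (56.2 to 61.9) and 59.9 with both (59.0 to 60.0), and those of 225 to 300 bp 94.8 with BMI1 (89.0 to 107) and 87.3 with both (84.0 to 90). The share of RING1A peaks found at regions with all 3 subunits was 0.784% at 75 to 100 bp, 13.1% at 225 to 300 bp and 33.2% at 325 bp or more. A merged region of several peaks is also longer by construction. The median region length was 325 bp with all 3 subunits, 200 bp for RING1A with BMI1, 175 bp for both pairs with RING1B, 125 bp for RING1A alone and 100 bp for BMI1 or RING1B alone. In 519 of the 3110 regions with all 3 (16.7%) at least 1 subunit had 2 or more peaks, and the most peaks in a region was 11.

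The tallest regions outside high-signal windows show what each combination held at its upper end. With all 3 subunits these were chromosome 2 at 133025526 to 133025975, with heights of 4837 for RING1A, 2414 for RING1B and 3857 for BMI1, and chromosome 1 at 143278576 to 143279350, with 4076, 2212 and 4133. Both also had EED, uH2A mouse and H3K27me3 peaks and no uH2A rabbit peak. The tallest region of RING1B with BMI1, chromosome 18 at 107826 to 108375, had heights of 3411 and 1766 and no RING1A peak, and the next, chromosome 21 at 9696651 to 9696975, had 736 and 681. The tallest region of RING1B alone, chromosome 18 at 108451 to 108575 with a height of 433, lay beside the first of these. These 3 had EED and H3K27me3 peaks. The second of RING1B alone was chromosome 8 at 43838476 to 43838625, with a height of 217 and an H3K27me3 peak.

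In the other combinations the tallest regions were chosen in the same way, and heights of different lists are not comparable. RING1A alone reached 438 on chromosome 4 at 68264676 to 68264825, which had an H3K27me3 peak, and 173 on chromosome 14 at 35761426 to 35761950, which had EED and uH2A mouse. RING1A with BMI1 reached 279 and 522 on chromosome 2 at 92315176 to 92315275, with H3K27me3, and 170 and 258 on chromosome 14 at 35204126 to 35204425, with EED and both uH2A antibodies. BMI1 alone reached 284 on chromosome 21 at 11186776 to 11186850, with no other antibody, and 223 on chromosome 2 at 91821601 to 91821800, with EED, uH2A rabbit and H3K27me3. RING1A with RING1B reached 278 and 252 on chromosome 6 at 119558526 to 119558625, with no other antibody, and 120 and 92.4 on chromosome 14 at 32464526 to 32464650, with EED and both uH2A antibodies.

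The longest regions with all 3 subunits were broad, and their heights were high within each list though far below those of the tallest regions. Height percentiles ran from 98.7 to 99.6 for RING1A, 81.7 to 93.5 for RING1B and 96.7 to 98.8 for BMI1. Chromosome 15 at 22040126 to 22045225 spanned 5100 bp, with 1 RING1A, 5 RING1B and 1 BMI1 peak and top heights of 171, 96.0 and 180. Chromosome 14 at 19498401 to 19502750 spanned 4350 bp, with 1, 8 and 2 peaks. Chromosome 5 held regions of 4300 bp (34189351 to 34193650) and 3700 bp (21481526 to 21485225), and chromosome 21 one of 3375 bp (11109076 to 11112450). The peaks of RING1A, RING1B and BMI1 numbered 1, 1 and 1 in the first of these, 2, 5 and 2 in the second and 4, 1 and 2 in that on chromosome 21. RING1B thus had the most peaks in 3 of the 5 and RING1A in 1. All 5 had a uH2A mouse peak, 4 had EED, 3 had uH2A rabbit and none had H3K27me3.

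The 4 other antibodies were not used to place the regions in combinations, and of these H3K27me3 followed the presence of RING1B. H3K27me3, the PRC2 mark, overlapped 6.57% of all regions by at least 1 bp. It overlapped 28.9% (25.9 to 32) of regions of RING1B with BMI1, 27.3% of those with all 3 subunits, 22.7% of RING1B alone and 12.8% of RING1A with RING1B. Without RING1B the shares were 6.87% for RING1A with BMI1, 5.27% for BMI1 alone and 4.57% for RING1A alone. Regions with RING1B thus carried H3K27me3 in 26.5% of 4719 cases and regions without it in 5.00% of 59721, or 21.5 percentage points more (20.2 to 22.8 by Newcombe's method). For BMI1 the same difference was 5.61 points (5.15 to 6.08), and for RING1A it was -2.43 (-3.07 to -1.82). The RING1A difference pools unlike combinations. Beside BMI1 the H3K27me3 share was higher with RING1A than without it, by 1.61 points (0.87 to 2.34). Beside RING1B it was lower, at 12.8% (8.71 to 18.0) against 22.7% (19.1 to 26.6). Beside both others it was 27.3% (25.8 to 28.9) against 28.9%, with overlapping intervals. H3K27me3 and the 3 PRC1 subunits come from the same library set.

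EED and uH2A, from the other library set, had a different order. EED overlapped 9.06% of all regions, and its share was highest at RING1A with BMI1 (22.8%), then all 3 subunits (17.0%), BMI1 alone (13.4%), RING1B with BMI1 (10.1%), RING1A alone (5.08%), RING1A with RING1B (4.59%) and RING1B alone (3.24%). The difference between RING1B alone and RING1A alone, -1.84 points (-3.09 to 0.13), and that between RING1A with RING1B and RING1A alone, -0.49 points (-2.58 to 3.16), did not exceed counting error. The uH2A rabbit antibody overlapped 15.0% of all regions, with 28.4% at RING1A with BMI1, 18.9% at BMI1 alone, 14.9% at all 3, 12.01% at RING1A alone and 1.62% to 7.25% at the combinations of RING1B without both others. The uH2A mouse antibody overlapped 24.9% of all regions, with 44.7% at RING1A with BMI1, 26.7% at all 3, 23.6% at RING1A alone, 18.8% at RING1A with RING1B and 13.1% at BMI1 alone. It overlapped 1.45% of regions of RING1B with BMI1 and 1.82% of RING1B alone. Regions with RING1A had uH2A mouse in 27.1% of cases and those without in 11.2%, a difference of 15.9 points (15.1 to 16.6). For uH2A rabbit the pooled direction was opposite, with 14.7% and 16.8%, a difference of -2.04 points (-2.89 to -1.22). Between combinations differing only in RING1A, however, the uH2A rabbit share over all lengths was higher with it. It was 28.4% against 18.9% with BMI1, 14.9% against 7.25% with both others, and 5.05% against 1.62% with RING1B. Intervals overlapped in the last, 2.55 to 8.85 and 0.70 to 3.17. At 225 to 300 bp it was not higher with BMI1 (32.4% against 40.6%) or both others (8.40% against 9.17%).

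**Figure D3:**
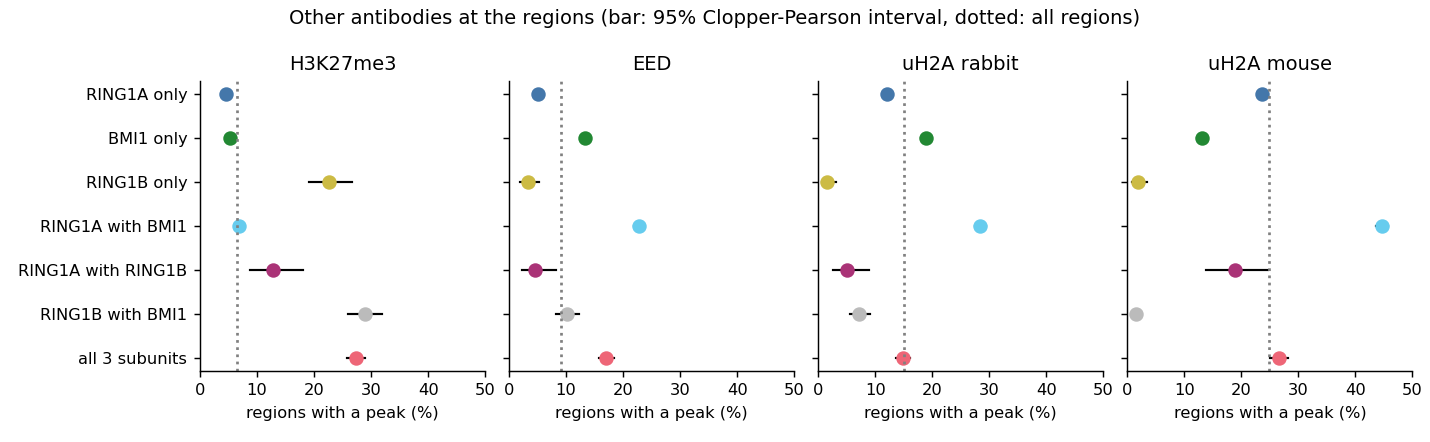
Share of regions in percent that overlap a peak of H3K27me3, EED, uH2A rabbit or uH2A mouse in control cells, by combination, with Clopper-Pearson intervals and a dotted line for all regions. H3K27me3 lies between 12.8% and 28.9% in the 4 combinations with RING1B and between 4.57% and 6.87% in the 3 without, while uH2A mouse is highest, at 44.7%, for RING1A with BMI1.

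The comparison of all 3 subunits with RING1A alone differed between all regions and regions of like length for 3 of the 4 antibodies. Over all lengths the shares at regions with all 3 exceeded those at RING1A alone by 22.8 points for H3K27me3 (21.2 to 24.4), 11.96 for EED (10.7 to 13.3), 2.85 for uH2A rabbit (1.6 to 4.17) and 3.01 for uH2A mouse (1.44 to 4.64). Among regions of 225 to 300 bp the H3K27me3 shares were 27.7% of 940 regions with all 3 and 6.62% of 3399 with RING1A alone, a difference of 21.04 points (18.1 to 24.1). The EED difference in that class was 0.41 points (-1.73 to 2.80), although at 525 bp or more EED was present at 33.2% (29.9 to 36.5) of regions with all 3 and 22.02% (14.6 to 31.0) of RING1A alone. The uH2A directions turned, to -14.5 points for rabbit (8.40% against 22.9%) and -25.2 points for mouse (21.6% against 46.7%). With 4522 peaks of each subunit the EED difference was 2.36 points (-0.41 to 5.12), and the uH2A ones were again below 0, at -3.65 for rabbit and -23.7 for mouse.

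**Figure D4:**
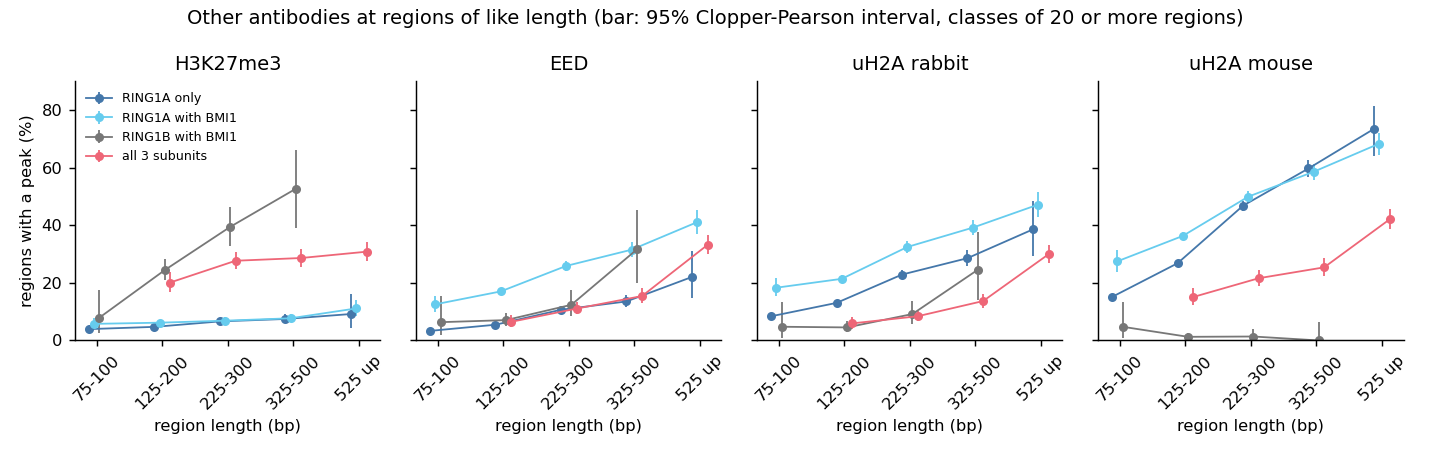
Share of regions in percent that overlap each of the 4 other antibodies, by region length in bp, for RING1A alone, RING1A with BMI1, RING1B with BMI1 and all 3 subunits, with Clopper-Pearson intervals and classes of 20 or more regions. At 225 to 300 bp H3K27me3 is higher with all 3 (27.7%) than with RING1A alone (6.62%), and uH2A mouse is lower (21.6% against 46.7%).

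The pair of combinations that share BMI1 and differ in the RING1 protein stood apart at like length. At 225 to 300 bp H3K27me3 was present at 39.4% (32.9 to 46.3) of 218 regions of RING1B with BMI1 and 6.87% of 2301 of RING1A with BMI1. In the same class uH2A mouse was present at 1.38% (0.28 to 3.97) of the former and 49.9% (47.8 to 52.0) of the latter. Over the other combinations uH2A mouse was present at 46.7% (45.1 to 48.4) of RING1A alone and 35.4% (22.2 to 50.5) of RING1A with RING1B (48 regions). It was present at 21.9% of BMI1 alone, 21.6% of all 3 and 0 of 18 regions of RING1B alone. Each share with RING1B was thus below that of the same combination without it. For RING1A alone and RING1A with RING1B the intervals overlapped. H3K27me3 was present at 66.7% (41.0 to 86.7) of the 18 regions of RING1B alone. At RING1A with RING1B it was present at 16.7% (7.48 to 30.2). This interval overlapped those of RING1A alone, 6.62% (5.81 to 7.51), and BMI1 alone, 8.48% (5.18 to 12.9). EED was present at 34.4% (28.2 to 41.0) of 224 regions of BMI1 alone, 25.9% of RING1A with BMI1, 12.4% of RING1B with BMI1, 11.1% of all 3 and 10.7% of RING1A alone. At 525 bp or more, uH2A mouse was present at 73.4% (64.1 to 81.4) of 109 regions of RING1A alone and 42.0% (38.6 to 45.5) of 802 with all 3.

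At RING1A alone, taller RING1A peaks more often had uH2A mouse and EED, while the H3K27me3 share differed little. From the lowest to the tallest 25% of RING1A peaks, in 4 equal classes, the uH2A mouse share at RING1A alone was 11.7%, 19.4%, 27.5% and 46.0%, and the EED share 2.53%, 4.17%, 5.45% and 10.5%. The H3K27me3 share over the same classes was 4.56%, 4.60%, 4.65% and 4.96% (4.45 to 5.51). At other combinations H3K27me3 was most frequent in the tallest class, except at RING1A with RING1B. With all 3 subunits its share over the RING1A classes was 18.4%, 9.52%, 21.5% and 29.2% (27.4 to 31.0, 2416 regions), the lower classes holding 84 to 186 regions, and at RING1A with BMI1 it was 6.12%, 5.19%, 5.55% and 8.23% (7.41 to 9.11). At RING1A with RING1B, with 33 to 86 regions per class, the H3K27me3 share was 20.0%, 18.2%, 4.55% and 10.5%, with wide intervals. The uH2A mouse share in the tallest class of all 3 was 31.6% (29.7 to 33.5). By 4 classes of BMI1 height the H3K27me3 share at BMI1 alone was 4.0%, 4.92%, 5.76% and 6.11%, and at all 3 subunits 15.3%, 10.9%, 14.3% and 31.3% (29.3 to 33.3).

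H3K27me3 seldom met uH2A at any combination. Of the 494 regions of RING1B alone, 109 (22.1%, 18.5 to 26.0) had H3K27me3 and neither EED nor uH2A. Another 24 (4.86%) had EED or uH2A and no H3K27me3, and 2 (0.405%, 0.0491 to 1.45) had H3K27me3 with a uH2A antibody. At the other combinations this last share ran from 1.71% (1.43 to 2.03) at BMI1 alone to 7.11% at all 3 subunits. The interval of RING1B alone overlapped those of BMI1 alone and of RING1A with RING1B (0.749 to 5.27). At RING1B alone uH2A was itself rare, at 1.62% for rabbit and 1.82% for mouse. Whether the marks met there less often than their own shares imply was not tested. H3K27me3 without EED or uH2A was found at 24.9% of RING1B with BMI1, 19.9% of all 3, 2.80% of RING1A with BMI1 and 2.67% of RING1A alone. EED or uH2A without H3K27me3 was found at 50.3% (49.2 to 51.3) of RING1A with BMI1 and 29.3% of RING1A alone. About 1 in 2 regions with all 3 subunits, 49.4%, had none of the 4 other antibodies, less often than RING1A alone at 66.1%. At least 1 of the 4 was present at 50.6% of regions with all 3, against 37.8% of all regions.

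Regions with all 3 subunits lay closer to other regions than any other combination. The median gap from a region to the nearest other region was 325 bp for all 3 (300 to 325), 650 bp for RING1B with BMI1, 700 bp for RING1A with BMI1, 787.5 bp for RING1A with RING1B, 850 bp for RING1B alone, 1800 bp for RING1A alone (1750 to 1850) and 2025 bp for BMI1 alone. Of all regions, 78.2% had another within 10 kb and 44.6% within 1 kb. For all 3 subunits these shares were 96.3% and 75.7%, and for RING1A alone 75.3% and 40.4%. The difference within 10 kb was 21.1 points (20.2 to 21.8), and 13.4 points (11.6 to 15.1) among regions of 225 to 300 bp. Other combinations with RING1B came near all 3 within 10 kb. RING1B with BMI1 had 95.9% (94.4 to 97.1) and RING1A with RING1B 93.6% (89.5 to 96.4), overlapping the interval of all 3 (95.6 to 97.0). RING1B alone had 89.1%. Within 1 kb these had 61.0%, 56.0% and 55.9%, below all 3. Neighbours were of the same combination more often than over all regions in 6 of the 7. Where the next region lay within 10 kb, it had all 3 subunits in 38.5% of cases after a region with all 3 and in 1.93% after RING1A alone, against 6.84% over all regions. After RING1B with BMI1 it had all 3 in 32.8% of cases, and after RING1B alone in 25.9%. The next region was of the same combination in 74.5% of cases for RING1A alone (63.0% over all regions), 23.8% for RING1B with BMI1 (1.94%), 23.4% for RING1A with BMI1 (15.9%), 18.7% for RING1B alone (0.949%), 16.9% for BMI1 alone (10.96%) and 0 of 175 for RING1A with RING1B, with an upper bound of 2.09%.

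Regions with RING1B that lacked another subunit often had it nearby, and so did BMI1 alone for RING1A. The median distance from a region of RING1B with BMI1 to the nearest RING1A peak was 1350 bp, and 42.5% (39.2 to 45.8) had one within 1 kb. RING1A was within 1 kb of 34.6% (30.4 to 39.0) of RING1B alone and 32.5% (31.4 to 33.6) of BMI1 alone. Of all regions, 44.6% had another region of any combination within 1 kb. From RING1A with RING1B to the nearest BMI1 peak it was also 1350 bp. RING1B alone lay 1925 bp from RING1A and 1800 bp from BMI1, and BMI1 alone 2925 bp from RING1A. RING1A alone lay 18637.5 bp from BMI1 and 813388 bp from RING1B, the shortest list. Within 100 bp the absent subunit was found for 1.98% (BMI1) and 0.0940% (RING1B) of RING1A alone and for at most 7.39% of any other combination.

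Both the regions with all 3 subunits and those of RING1A alone were gathered in windows. The former fell in 747 windows of 100 kb, and 82 windows with 10 or more held 1574 of them (50.6%). The 43598 regions of RING1A alone fell in 11316 windows, and 971 with 10 or more held 39.3% of them. A single region of its combination in a window made up 11.7% of those with all 3 and 10.4% of RING1A alone. In the 82 crowded windows H3K27me3 was present at 32.3% (30.0 to 34.7) of regions with all 3 and uH2A mouse at 22.2% (20.1 to 24.3). Where a window held a single region with all 3, as for 364, the shares were 23.9% (19.6 to 28.6) and 33.8% (28.9 to 38.9). Between these, with 2 to 4 and 5 to 9 regions, H3K27me3 was at 23.3% and 20.2% and uH2A mouse at 29.6% and 31.3%. Neither share thus changed steadily with the number in the window. The median RING1B height percentile was 71.4 in the crowded windows and 35.3 in the windows with a single one, and that of RING1A 97.7 and 94.0.

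The 5 windows with the most regions of all 3 subunits differed in their marks. The windows on chromosome 21 at 11100001 to 11200000 and chromosome 15 at 20400001 to 20500000 held 46 each. Of these, 17 and 19 had EED, 23 and 30 uH2A mouse, and 0 and 1 H3K27me3. The window on chromosome 2 at 91700001 to 91800000 held 41, of which 20 had H3K27me3, 13 EED and 16 uH2A mouse. On chromosome 1 at 228700001 to 228800000, 35 of 36 had H3K27me3 and 0 had EED or uH2A. On chromosome 19 at 36700001 to 36800000, 0 of 39 had any of the 4. The median RING1A, RING1B and BMI1 heights were 160.5, 85.5 and 126 in the window on chromosome 1 and 166, 79.0 and 137 in that on chromosome 19, so windows of like PRC1 signal lay at opposite ends for H3K27me3.

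Chromosomes 14 and 21 had the most regions per Mb both for all 3 subunits and for RING1A alone. Per Mb up to the last peak, all 3 subunits were most frequent on chromosome 14 (4.52, 485 regions), 21 (4.30, 207) and 22 (2.81, 144) and least on 6 (0.0818, 14), 11 (0.0815, 11) and 13 (0.00869, 1). RING1A alone was most frequent on chromosome 14 (42.3), 21 (37.6) and 17 (29.5) and least on 13 (2.39), Y (1.16) and X (0.612). The share of regions with all 3 subunits was 26.6% (22.7 to 30.7) of 497 on Y, 20.0% (15.7 to 24.9) of 305 on X, 9.08% on 2, 8.76% on 1 and 0.508% (0.254 to 0.908) on 11. The megabases with the most regions of all 3 were 49000001 to 50000000 on chromosome 4 (111), 20000001 to 21000000 on 15 (107), 19000001 to 20000000 on 14 (105), 9000001 to 10000000 on 21 (90) and 91000001 to 92000000 on 2 (84). Those on 14, 15 and 21 hold the first peak of any library on their chromosome, at 19059426, 20070801 and 9431976. These megabases were singled out after their values were seen, and no mappability or repeat track was used.

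Regions with RING1B were less frequent near the chromosome ends. The outermost 5 Mb, counted from position 1 and from the last peak, held 22.2% of all regions. They held 24.6% (24.2 to 25) of RING1A alone, 19.7% of RING1A with BMI1, 19.3% of BMI1 alone, 9.92% of RING1B with BMI1, 9.39% (8.39 to 10.5) of all 3 subunits, 7.34% of RING1A with RING1B and 6.88% of RING1B alone. RING1A alone was close to the share of all regions, most of which it makes up, and its difference from all 3 was 15.2 points (14.1 to 16.3). On chromosomes 13, 14, 15, 21 and 22 no library had a peak before 9431976, so the low end there holds no region. All of these but 13 held a larger share of all 3 than of RING1A alone, such as 15.6% against 10.4% on 14. How far this lowers the shares was not tested. The megabases with the most regions of RING1A alone were 105000001 to 106000000 on chromosome 14 (471), and 1000001 to 2000000 (456) and 1 to 1000000 (368) on chromosome 5. RING1B alone had 71 of its 494 regions on chromosome 1, 69 on X and 59 on 14, and X held 305 of all 64440 regions. Of the 69 on X, 35 lay between 61683226 and 61723125 and 26 between 58565901 and 58581950, with H3K27me3 at 16 and 14.

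Summits of the subunits lay close together where they shared a region. The median distance between the summits of the tallest peaks was 20.0 bp for RING1B and BMI1 (19.5 to 21.5, 3545 regions), 27.5 bp for RING1A and RING1B (26.0 to 29.5, 2971 regions) and 29.0 bp for RING1A and BMI1 (28.0 to 30.0, 10980 regions). These are shorter than the 40-nucleotide reads, and 85.2% to 89.3% of summit pairs lay within 100 bp. In the 2773 regions with all 3 and a summit the medians were 21.5 bp for RING1B to BMI1, 23 bp for RING1A to BMI1 and 27.5 bp for RING1A to RING1B. BMI1 lay nearest to RING1B where RING1A was absent, at 16.5 bp (14.5 to 18.0), and farther from RING1A where RING1B was absent, at 31.5 bp (30.5 to 33.0). Longer regions with all 3 had greater distances, from 18.5 bp between RING1A and RING1B at 125 to 200 bp to 57.0 bp (47.0 to 64.0) at 525 bp or more. At like length in these regions, BMI1 lay about as far from RING1A as from RING1B, with overlapping intervals. Both distances were 14.75 bp at 125 to 200 bp, and 38.0 bp (30.0 to 44.5) and 42.0 bp (37.0 to 48.0) at 525 bp or more. Distances in the pairs were not compared at like length.

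**Figure D5:**
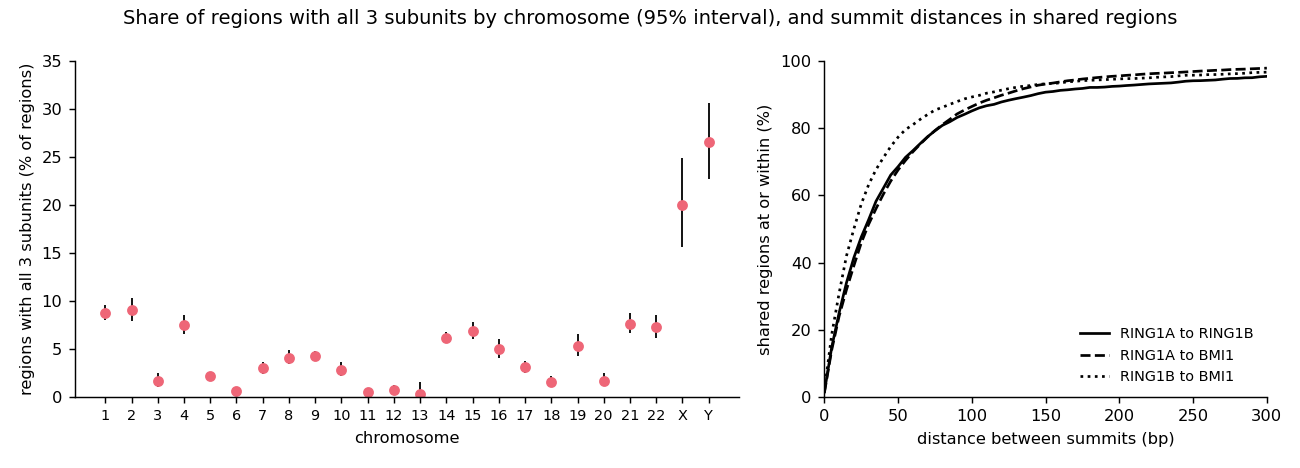
Left, share of regions with all 3 subunits in percent by chromosome with Clopper-Pearson intervals, highest on Y (26.6%) and X (20.0%). Right, share in percent of shared regions whose summits lie at or within a distance in bp, where RING1B and BMI1 have the shortest distances, with a median of 20.0 bp.

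The marks' summits lay at various distances from those of the subunits. In regions with all 3 subunits and H3K27me3 (769 with summits), the H3K27me3 summit lay a median of 27.5 bp from RING1B (23 to 30.5), 28.5 bp from BMI1 and 33.0 bp from RING1A. The uH2A mouse summit (801 regions) lay 33.5 bp (30.5 to 37.5) from RING1A, 44.0 bp from BMI1 and 50 bp (45.5 to 57.5) from RING1B, nearest to RING1A. EED summits (511 regions) lay 55.5 to 69.0 bp away and uH2A rabbit summits (446 regions) 54.0 to 72.0 bp away. EED and both uH2A libraries belong to the other library set, whose part in these distances was not tested.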

How the data were processed

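ChIP-seq libraries of 7 antibodies in control DU145 cells were used, 1 library each. Per the labels' protocols, 10 to 20 ng of DNA entered each library, and 40-nucleotide reads were sequenced with 1 lane per library. Per the submitters' processing notes, the authors used Bowtie and the hg19 build. For the peak caller's settings and any input library, the sources used here say nothing.

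The deposited lists have no header, and give each peak's position, length, offset, height and score. The height was read as signal from its values, in the authors' own scale, and compared only within a list. The offset was read as the summit position. The deposited score was not used. Numbers above 22 were taken for X and Y, an assumption. Heights of 0, found on chromosomes 22, X and Y, were treated as missing, which the planned design had not foreseen.

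Peaks sharing at least 1 bp were merged. A distance is that between the tallest peaks of a region. Shares carry Clopper-Pearson, differences Newcombe and medians order-statistic intervals, all at 95%. Merging and summit distances were tested on simulated lists. The regions named are the 2 per combination with the highest mean height percentile, the 5 longest and the 5 richest windows with all 3 subunits, each outside high-signal windows, and the 3 chromosomes at either end. Alternatives concerned overlap, joining, height, list length, chromosomes, high-signal windows and region length. The regions, lists and rules were chosen with earlier results of these data known. Python 3.11.15, numpy 2.4.6, pandas 2.3.3, scipy 1.17.1 and matplotlib 3.10.9 were used.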

Additional observations from a re-analysis of the deposited data

How the results depend on the processing

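The 19 values compared were recomputed under 9 alternatives, of which 2 were chosen after seeing the data. Of the 157 values obtained, 95 stayed within the counting interval, or for counts within 1.5 times, 56 moved further and 6 turned in direction. The share of H3K27me3 stayed higher at all 3 subunits than at RING1A alone in each alternative. Unless said otherwise, a difference below is that of all 3 subunits minus RING1A alone, in percentage points, and a ratio that of all 3 to the subunit alone. The cause of these shifts was not tested.

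With the 4522 tallest peaks of each subunit, region numbers were 1645 for RING1A alone, 1314 for RING1B alone, 1094 for BMI1 alone, 732 for RING1A with BMI1 and 1793 for all 3. The differences were 26.4 for H3K27me3, 2.36 for EED, -3.65 for uH2A rabbit, -23.7 for uH2A mouse and 35.4 for a neighbour within 10 kb. Ratios of RING1A length and height were 1.4 and 1.57, those of BMI1 1.62 and 1.48, and RING1A to BMI1 summits lay 22.5 bp apart. With only peaks of the median height or more, the numbers were 21150, 106, 3085, 4377 and 1555, with 32 for RING1A with RING1B and 390 for RING1B with BMI1. The differences were 34.3 for H3K27me3, 13.4 for EED, -4.01 for uH2A mouse and 29.5 for a neighbour. The ratio of RING1A height was 2.30, those of BMI1 length and height 2.17 and 1.96, and summits lay 25 bp (RING1A to RING1B), 26.5 bp (RING1A to BMI1) and 17.5 bp (RING1B to BMI1) apart.

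With peaks within 1000 bp joined, the numbers were 229 for RING1B alone, 4667 for BMI1 alone and 445 for RING1B with BMI1. The differences were 24.4 for H3K27me3, 18.5 for EED, 8.93 for uH2A rabbit, 12.4 for uH2A mouse and 30.6 for a neighbour. Ratios of RING1A length and height were 2.25 and 1.54, those of BMI1 2.0 and 1.46, and the summit distances 41.0, 51.5 and 26.5 bp. With an overlap of at least 50% of the shorter peak, RING1A to BMI1 summits lay 27.5 bp apart. Peaks of height above 0, which leaves out chromosomes 22, X and Y, gave differences of 13.4 for EED and 5.29 for uH2A mouse.

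Without high-signal windows the H3K27me3 difference was 21.05. With these windows set at 3 times the median height, an added alternative, the differences were 20.4 for H3K27me3, 8.38 for EED, 0.24 for uH2A rabbit and -1.43 for uH2A mouse, and the height ratios 1.87 for RING1A and 1.66 for BMI1. In regions of 225 to 300 bp, the other added alternative, the differences were 21.04 for H3K27me3, 0.41 for EED, -14.5 for uH2A rabbit, -25.2 for uH2A mouse and 13.4 for a neighbour. No paired analysis was possible because each group has 1 library.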
